A study of Mus musculus with 45 samples.

Results

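Excitotoxic NMDA receptor (NMDAR) stimulation was applied in different ways to mouse hippocampal primary neurons that were already firing, and the transcriptomes of 2 of these conditions are compared here gene by gene. The first condition (TTX/NMDA) is an exogenous agonist: cultures spent 1 h in 50 µM bicuculline (Bic), and then tetrodotoxin (TTX) at 1 µM and NMDA at 30 µM joined it in the bath for another 1 h. The second (TBOA) relies on endogenous glutamate: after the same 1 h in Bic, the uptake inhibitor TBOA (50 µM) was added for 1 h and no TTX was given. The samples were chosen by these treatments alone, 5 with TTX/NMDA and 5 with TBOA, which makes 10 of the 45 samples of the series. The 5 culture preparations, numbered 1, 3, 6, 7 and 8, each gave 1 sample to either arm, so that every sample of one arm has a partner from the same preparation in the other. All cultures came from newborn C57BL/6N mice, grew at first in B27 with 1% rat serum and later in a defined medium, received AraC, which kills dividing cells, and were treated on day in vitro 10 or 11 per the labels (the study's methods give day 11 for RNA-seq). For reference, 5 samples with 2 h of Bic alone, 5 with 1 h Bic followed by 1 h of TTX in Bic, and 5 untreated controls came from the same preparations. Because TTX was added with NMDA and not with TBOA, the block of AP firing and the agonist cannot be told apart in the comparison of the arms, and the agents differ in dose.

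NMDARs are glutamate-gated cation channels that let calcium into neurons, and their effect on transcription depends on where they sit. Synaptic NMDARs drive genes of plasticity and survival through calcium-dependent kinases and factors such as CREB, whereas NMDARs outside the synapse are linked to CREB shut-off, mitochondrial damage and cell death. NMDA itself is not taken up by glutamate transporters and reaches receptors over the whole cell surface. TBOA blocks the excitatory amino acid transporters, which in the hippocampus sit mostly on astrocytes and clear glutamate from the cleft, so that glutamate released by firing synapses spills over to nearby receptors. Bic blocks GABA type A receptors and evokes AP firing, and TTX blocks the voltage-gated sodium channels that carry APs.

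RNA was sequenced from poly-A-selected, strand-specific libraries, and reads per gene were counted on the sense strand. The TTX/NMDA samples held 13467115 to 48077885 counts (median 33539111). The TBOA samples held 11455443 to 81129276 (median 33725693). Preparation 6 gave the smallest total in both arms. The depth of the arms differed most in preparation 1, with 38243800 counts in the TTX/NMDA and 81129276 in the TBOA sample. Levels are given as CPM, the count of a gene relative to the total count of its sample, scaled by TMM, always in the order of preparations 1, 3, 6, 7 and 8, and differences as log2 fold changes (FC) of TTX/NMDA over TBOA with their standard error (SE), from edgeR's quasi-likelihood test with the preparation as a block and Benjamini-Hochberg adjustment over all genes tested.

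Of 16216 genes tested, 4064 (25.1%) were higher and 3627 (22.4%) lower with TTX/NMDA than with TBOA at an adjusted p-value under 0.05. Most of these differences were modest, with a median absolute log2FC of 0.35 among the genes called. A change of at least 2-fold was seen for 201 of the higher and 91 of the lower genes, and 6273 of the 7691 genes called had the same direction in 5 of 5 preparations. Many of the 201 were non-coding models inside other genes, described below, and scarce ones passed the low-count filter through the TTX/NMDA samples. Among genes matched to a RefSeq promoter, the 2-fold counts were 57 higher and 59 lower. Higher genes made up 52.8% of the calls with TMM scaling and 77.7% with scaling by library totals alone, which raised the median log2FC of all genes from 0.043 to 0.18. Of 657 genes on the 36 lists used here, 635 passed the filter on low counts, and of these 151 were higher and 274 lower. Against 2 h of Bic without interference, 9027 of 15947 genes (56.6%) differed with TTX/NMDA and 417 of 15628 (2.67%) with TBOA. These reference comparisons share the 2 h Bic samples, and the second count moved with single preparations. It was 924 without preparation 6, 120 without preparation 1, 236 without preparation 3 and 236 without preparation 8. TTX and TBOA, a comparison that shares the TBOA samples, differed in 1945 of 15892 genes (12.2%), a count that fell to 1174 without preparation 7 and to 998 without preparation 8. The first principal component over 13738 genes carried 48.0% of the variance of the 10 samples and separated the arms in every preparation, by 48.7, 35.1, 25.8, 48.1 and 32.3 units (mean 38 ± 10.1 SD). The component was computed from these samples, so the distances are a description. The separation was smallest in preparation 6, and the median absolute log2 ratio between the arms was 0.19 in preparations 3, 6 and 8, 0.24 in preparation 7 and 0.26 in preparation 1.

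Among genes with a mean of at least 5 CPM, the largest differences in named genes with TTX/NMDA below TBOA were those of Dcc, Slit3 and Adamts3. Dcc, the netrin receptor that steers growing axons, was at 8.27, 9.34, 11.1, 9.31 and 12.03 CPM with TTX/NMDA and at 34.96, 39.4, 26.6, 36.1 and 29.8 CPM with TBOA (log2FC -1.76, SE 0.12, adjusted p = 5.33e-06). Slit3, a secreted ligand of the Robo guidance receptors, was at 32, 31.7, 41.5, 32.7 and 49.2 CPM against 123, 115, 101, 152 and 121 CPM (log2FC -1.72, SE 0.12, adjusted p = 5.65e-06). Adamts3, a procollagen-processing metalloprotease, stood at 10.6, 12.7, 12.8, 9.41 and 14.3 CPM against 42.3, 45.03, 34.5, 39.5 and 36.7 CPM (log2FC -1.74, SE 0.10, adjusted p = 2.27e-06). For all 3 genes every TTX/NMDA sample lay under every TBOA sample. Here and below, such separation describes single genes, many of them chosen for large differences. The share of all genes tested whose arms do not overlap is not given. Of these 3, Bic alone raised Slit3 (log2FC 0.43, adjusted p = 0.0172) and gave log2FC of 0.12 for Dcc (0.598) and 0.092 for Adamts3 (0.494). Their mean levels were 37.5 ± 12.3, 110.0 ± 31.99 and 40.8 ± 10.1 CPM (SD, n = 5) in the control and 39.1 ± 6.08, 142 ± 21.3 and 42.6 ± 6.78 CPM after 2 h Bic. With TTX and no NMDA the levels were 40.9 ± 2.74, 124 ± 14.6 and 40.4 ± 3.53 CPM.

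Kcna1, a voltage-gated potassium channel subunit of axons, was at 28.3, 37.9, 48.97, 34.4 and 36.8 CPM with TTX/NMDA against 109.9, 101, 87.4, 118 and 100.3 CPM with TBOA (log2FC -1.50, adjusted p = 1.3e-05). The remaining genes among the 12 largest decreases were Ptchd1 (log2FC -1.56), Ptgs2, which encodes cyclooxygenase-2 (-1.38), the ubiquitin ligase gene Rnf217 (-1.34), the somatostatin receptor gene Sstr1 (-1.31), Ankrd33b (-1.30), the transcription factor gene Csrnp1 (-1.28), the heparan sulfate 6-O-sulfotransferase gene Hs6st3 (-1.28) and the kinase gene Pim1 (-1.27). Groups overlapped for Ptgs2 alone among these 12, through the TBOA sample of preparation 8. Its levels were 38.6, 50.4, 52.4, 31.4 and 24.4 CPM with TTX/NMDA and 129, 116, 108, 121 and 47.4 CPM with TBOA.

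Among the named genes with the largest increases with TTX/NMDA, Kcnq1ot1, the imprinted antisense transcript of the Kcnq1 locus (chr7:143203458-143296549, GRCm38), was at 36.6, 40.8, 30.8, 29.9 and 40.5 CPM with TTX/NMDA and at 14.6, 16.8, 10.9, 10.97 and 12.2 CPM with TBOA (log2FC 1.45, SE 0.07, adjusted p = 1.02e-06). Malat1, an abundant nuclear RNA, was at 1048, 1128, 891, 994 and 937 CPM against 484, 619.5, 506, 412 and 492 CPM (log2FC 1.00, SE 0.066, adjusted p = 4.14e-06). With TTX and no NMDA their means were 15.5 ± 2.46 and 541 ± 47.5 CPM (SD, n = 5), and TTX did not pass the test against TBOA (log2FC 0.22 and 0.11, adjusted p = 0.223 and 0.250). The microRNA host transcripts Mir99ahg (log2FC 1.23) and Mir124a-1hg (0.97), Ftx, a non-coding gene of the X-inactivation centre (1.03), and C78859 (0.96) were also higher. Mir124a-1hg differed from the others in the reference conditions. It stood at 78.9 ± 7.45 CPM with TTX/NMDA, 41.3 ± 9.58 CPM with TBOA, 98.04 ± 31.9 CPM with TTX and 72.99 ± 14.7 CPM after 2 h Bic. Its level with TBOA was under that after 2 h Bic (log2FC -0.84, adjusted p = 5.68e-04), whereas TTX/NMDA against 2 h Bic gave log2FC 0.13 (adjusted p = 0.1).

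Of the genes expressed by macrophages and microglia, Lyz2, which encodes lysozyme, was at 17.8, 19.9, 33.7, 28.2 and 17.2 CPM with TTX/NMDA against 8.37, 11.9, 15.5, 13.9 and 11.3 CPM with TBOA (log2FC 0.91). Mmp12, the macrophage metalloelastase, reached 11.6, 13.5, 23.2, 18.1 and 12.2 CPM against 6.75, 8.40, 7.84, 8.10 and 6.59 CPM (log2FC 0.97), and C3ar1, the receptor of the complement fragment C3a, and Cfp, which encodes properdin, had log2FC of 0.94 and 0.99. In all 4 genes the groups did not overlap. The defining microglial markers were near 0 in both arms and are given with the markers of the other cell types. In bulk samples, more cells of a type and more RNA per cell cannot be told apart.

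Immediate-early transcription factors, the first wave of activity-induced genes, were nearly all lower with TTX/NMDA. Of 30 members tested, 27 were lower, 1 was higher and 2 were not called, with a median log2FC of -0.55 against 0.043 over all genes tested. Csrnp1 was at 15.3, 18.4, 18.3, 19.4 and 14.1 CPM with TTX/NMDA and at 36.96, 39.5, 48.1, 46.9 and 37.7 CPM with TBOA (log2FC -1.28, SE 0.059, adjusted p = 1.02e-06). Npas4, a neuron-specific factor that organises inhibitory synapses, was at 859.9, 985, 1045, 919 and 820.3 CPM against 1942, 1893, 1833, 2152 and 1882 CPM (log2FC -1.07, SE 0.066, adjusted p = 3.31e-06). Both separated the arms completely and with little spread within each of them.

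The orphan nuclear receptor gene Nr4a1 differed less, with 552, 616, 668, 613 and 503 CPM against 767, 843, 781, 896 and 738 CPM (log2FC -0.45, SE 0.055, adjusted p = 1.39e-04), than its relative Nr4a3 (log2FC -1.10). Fos, the subunit of the AP-1 complex, ranged from 871 to 1241 CPM with TTX/NMDA and from 1226 to 1613 CPM with TBOA, so that the groups overlapped although every preparation had the lower value with TTX/NMDA (log2FC -0.47). Egr1 (log2FC -0.56), Atf3 (-0.95) and Arc, an effector at the synapse that is induced with these factors (-0.37), were lower in 5 of 5 preparations without overlap. The member that was higher, Klf2, is a scarce transcript at 1.07 to 2.10 CPM against 0.559 to 1.78 CPM (log2FC 0.49, adjusted p = 0.0207), and its call was lost with DESeq2 (adjusted p = 0.0922), without the block (0.181), with both of these changes (0.263), without preparation 1 (0.102) and without preparation 8 (0.0515).

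The second wave of secreted and synaptic activity-induced genes was lower in 23 of 36 members, higher in 5 and not called in 8 (median log2FC -0.37). Bdnf, the neurotrophin that supports neuronal survival (chr2:109674700-109727007, GRCm38), was at 99.5, 128, 149, 126 and 147 CPM with TTX/NMDA and at 231, 226, 270.2, 255 and 268 CPM with TBOA (log2FC -0.95, SE 0.061, adjusted p = 3.4e-06). Inhba, which encodes the activin A subunit, was at 8.77, 9.07, 13.3, 7.40 and 10.7 CPM against 23.1, 20.2, 26.97, 24.4 and 18.3 CPM (log2FC -1.20, SE 0.11, adjusted p = 2.3e-05). Homer1, a postsynaptic scaffold whose short form is induced by activity, was at 141, 242, 277, 185 and 208 CPM against 444, 439.9, 428, 462 and 458 CPM (log2FC -1.12, SE 0.12, adjusted p = 5.24e-05). None of the 3 showed overlap between the arms, and Homer1 with TBOA varied only from 428 to 462 CPM. Its counts are of the whole gene and do not separate the short form. The non-coding models Gm47088 and Gm47075, inside Homer1 on the same strand, were higher, with log2FC of 2.62 and 1.22. Serpinb2, a protease inhibitor gene, had the lowest log2FC of the list (-1.74, adjusted p = 0.00226), at 0.478, 0.328, 0.425, 0.228 and 1.76 CPM against 1.49, 1.78, 2.64, 3.34 and 2.41 CPM, with overlap through preparation 8.

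Members that went the other way were led by Npy, the neuropeptide Y gene of interneurons, at 44.04, 48.7, 109, 62.8 and 28.4 CPM with TTX/NMDA and 30.6, 40.1, 28.4, 43.6 and 19.98 CPM with TBOA (log2FC 0.72, adjusted p = 0.00800). The highest of these values, 109 CPM in preparation 6, lay well above the other 4 samples of its arm, and the adjusted p was 0.0832 with DESeq2 without the block. Markers of GABAergic neurons, given below, were also higher (median log2FC 0.27). Their part in the values for Npy, and for Sst given below, was not tested. The fibroblast growth factor gene Fgf2 was at 3.25, 2.99, 2.27, 3.97 and 2.31 CPM against 1.94, 2.15, 1.32, 1.79 and 1.65 CPM without overlap (log2FC 0.71).

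The reference conditions placed these genes differently. With TTX and no NMDA, Bdnf, Inhba and Homer1 stood at 319 ± 31.04, 43.8 ± 4.74 and 834 ± 74.1 CPM (SD, n = 5), and after 2 h Bic at 305 ± 28.1, 47.2 ± 4.95 and 652 ± 68.8 CPM. All 3 were higher with TTX than with TBOA (log2FC 0.35, 0.96 and 0.89, adjusted p = 2.04e-04, 1.04e-06 and 5.79e-07). The mean level of Bdnf with TTX/NMDA, 130.0 ± 20.1 CPM, stood beside 108 ± 22.97 CPM in the untreated control. Against 2 h Bic, TBOA gave log2FC of -0.29 for Bdnf (adjusted p = 0.00499), -1.08 for Inhba (1.7e-05) and -0.54 for Homer1 (1.97e-04), and TTX/NMDA gave -1.23, -2.27 and -1.65. Npas4, Nr4a1 and Trib1, a pseudokinase gene, behaved otherwise under TTX, with 776 ± 150.2, 233 ± 71.4 and 15.5 ± 3.08 CPM against 2211 ± 299.9, 901 ± 114 and 125 ± 25.9 CPM after 2 h Bic. For Trib1, TTX/NMDA stood between these, at 41.1, 56.8, 55.1, 56.5 and 45.4 CPM, and under TBOA, at 101, 131, 109, 119 and 89.1 CPM (log2FC -1.11, adjusted p = 1.32e-06). TBOA did not pass the test against 2 h Bic for Npas4 (log2FC -0.18, adjusted p = 0.188), Nr4a1 (-0.16, 0.228) or Trib1 (-0.17, 0.265).

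Some strongly activity-induced genes did not pass the test between the arms. The 4 most abundant genes that 2 h Bic raised at least 2-fold and that were not called between the arms were Gadd45g, Btg2, Ccn1 and Dusp1. Btg2, an antiproliferative early gene, was at 247, 271, 251, 229 and 269.7 CPM with TTX/NMDA and at 276, 284, 231, 245 and 210.1 CPM with TBOA (log2FC 0.034, 95% confidence interval -0.12 to 0.19, adjusted p = 0.714). Ccn1, a secreted matricellular protein gene, was at 259, 274, 244, 208 and 149 CPM against 267, 245, 206, 216 and 127 CPM (log2FC 0.11, interval -0.015 to 0.24, adjusted p = 0.132). The intervals for Gadd45g, a stress sensor gene, and Dusp1, a phosphatase gene that ends MAP kinase signalling, were -0.20 to 0.042 and 0.014 to 0.23 on the log2 scale, without adjustment for the number of genes. With TTX and no NMDA the same genes were far lower than in either arm: Btg2 was at 40.2 ± 10.96, Ccn1 at 8.15 ± 2, Gadd45g at 106 ± 12.9 and Dusp1 at 37.3 ± 9.65 CPM. TTX against TBOA gave log2FC of -2.67, -4.70, -1.62 and -2.15 for these genes. After 2 h Bic they were at 243 ± 43.5, 209.8 ± 66.5, 357 ± 41.4 and 174 ± 29.3 CPM. Scaling by library totals alone turned the results for Btg2, Ccn1 and Dusp1 into calls (log2FC 0.17, 0.25 and 0.26), and Dusp1 was also called among genes of at least 1 CPM (log2FC 0.13, adjusted p = 0.0478) and among nuclear protein-coding genes alone (0.13, 0.0447).

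**Figure D1:**
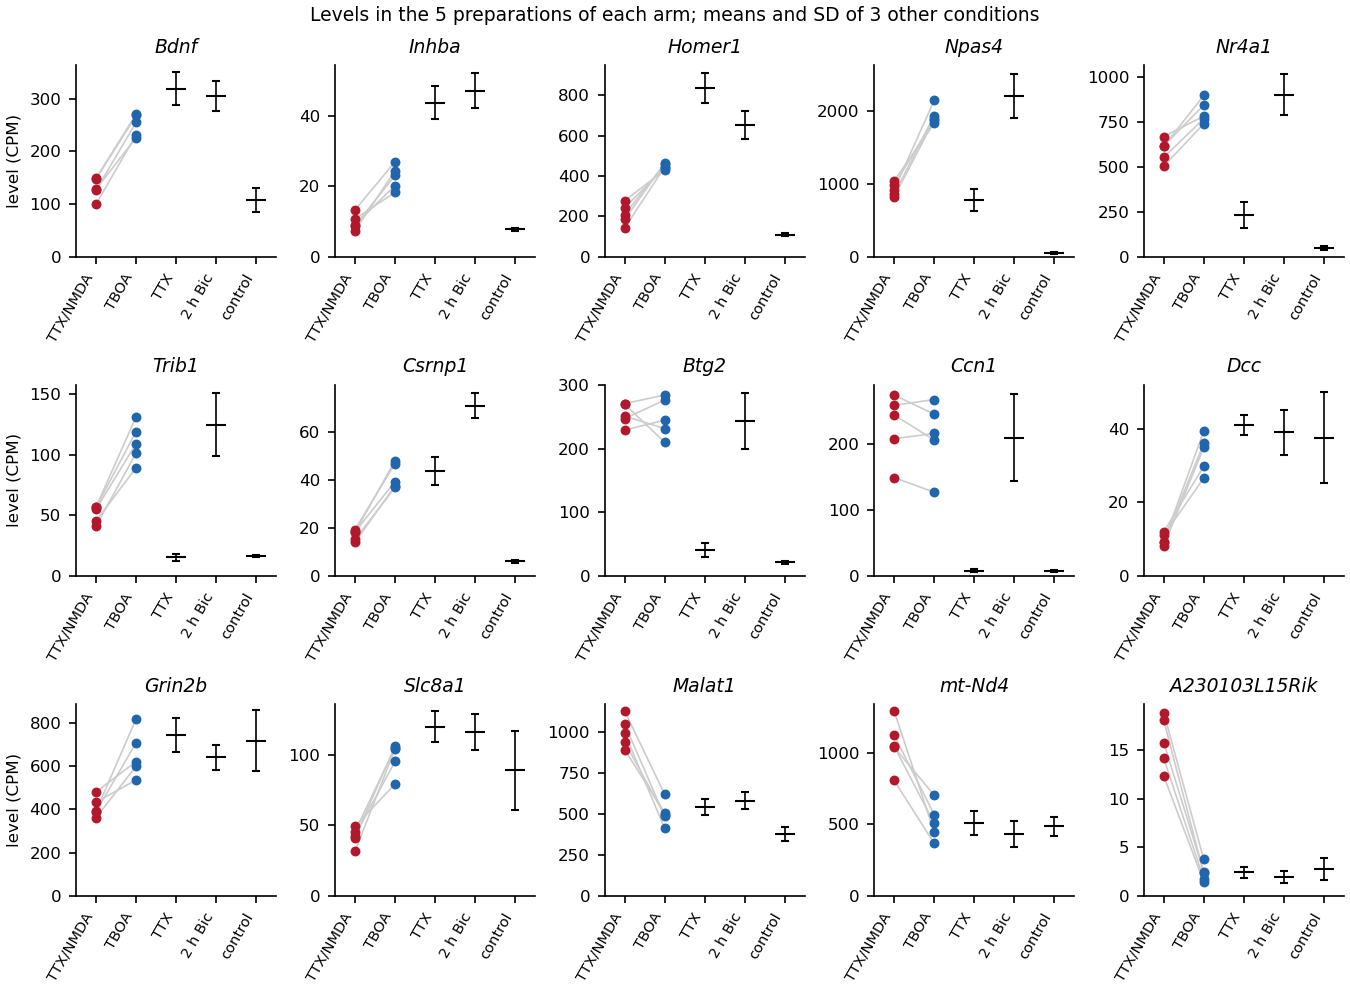
Levels in CPM of 15 genes by condition, with each panel's axis starting at 0. Dots are the 5 samples of TTX/NMDA (red) and of TBOA (blue), grey lines join samples of the same preparation, and black bars are the mean ± SD of 5 samples with TTX, with 2 h Bic and of the control. Bdnf, Inhba, Homer1, Npas4, Trib1, Csrnp1 and Dcc fall into separate ranges in the arms, Btg2 and Ccn1 overlap and lie far above TTX, and Malat1, mt-Nd4 and A230103L15Rik are highest with TTX/NMDA.

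Genes were also grouped by their response to 2 h Bic against the control, a comparison whose samples are in neither arm. It called 4479 of 15269 genes (29.3%), 2195 of them higher and 2284 lower after Bic. Of the 323 genes that Bic raised at least 2-fold and that were tested between the arms, 205 (63.5%) were lower with TTX/NMDA than with TBOA, 26 (8.05%) were higher and 92 were not called, with a median log2FC of -0.38. The count of 26 higher genes was 12 among nuclear protein-coding genes alone and 41 with library totals. Of the 117 genes that Bic lowered at least 2-fold, 90 (76.9%) were higher with TTX/NMDA and 0 were lower (median 0.55). Among all Bic-induced genes 983 of 2192 were lower and 384 higher, and among all Bic-reduced genes 890 of 2284 were higher and 206 lower. Of the genes that Bic did not change, 2531 were higher and 2423 lower of 10780 (median 0.034).

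The strongly induced genes were also grouped by their response to TTX, a grouping that was chosen after the values of Btg2 and Ccn1 were seen. TTX against 2 h Bic lowered 34 of them at least 2-fold, and of these 19 were lower, 4 higher and 11 not called between TTX/NMDA and TBOA (median log2FC -0.38). TTX lowered a further 162 by less, and of these 112 were lower and 11 higher (median -0.38). Of the 127 that TTX did not lower, 74 were lower and 11 higher (median -0.38). These classes were formed from samples that are in neither arm.

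Pou3f2, a POU domain factor of cortical neurons, was called in opposite directions in the arms against 2 h Bic, comparisons that share the Bic samples. It was higher with TTX/NMDA (log2FC 0.23, adjusted p = 0.0303) and lower with TBOA (-0.41, 0.0363). Its levels were 7.67, 8.51, 6.38, 10.1 and 7.24 CPM with TTX/NMDA and 5.45, 5.67, 4.94, 5.60 and 4.09 CPM with TBOA, without overlap (log2FC between the arms 0.64). At a mean of 5 CPM or more, no gene was called lower with TTX/NMDA and higher with TBOA.

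CREB binds the cAMP response element (CRE), whose full form is TGACGTCA and whose half-site is TGACG. The CRE was looked for on both strands in RefSeq promoters of GRCm38.p6 (250 bases before to 50 after the start), which matched 11790 of the 16216 genes tested by symbol. Among members of the 2 activity-induced lists, a full CRE was found in 5 genes, and these are shown because they share the element and differ in their response. The CRE is in capitals, flanked by 30 bases on each side, 5′ to 3′ on the strand of the gene.
Pcsk1 (chr13:75089749-75089816, plus strand): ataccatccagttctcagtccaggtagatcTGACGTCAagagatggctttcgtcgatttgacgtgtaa
Scg2 (chr1:79440057-79440124, minus strand): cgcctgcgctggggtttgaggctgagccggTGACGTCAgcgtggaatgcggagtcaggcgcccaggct
Plk2 (chr13:110394952-110395019, plus strand): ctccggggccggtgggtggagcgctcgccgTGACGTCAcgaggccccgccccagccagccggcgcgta
Btg2 (chr1:134079284-134079351, minus strand): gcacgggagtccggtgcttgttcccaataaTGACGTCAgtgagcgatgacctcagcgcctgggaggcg
Sst (chr16:23890855-23890922, minus strand): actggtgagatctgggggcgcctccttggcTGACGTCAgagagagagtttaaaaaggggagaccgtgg

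The CRE began 78 bases before the start in Pcsk1, 68 in Scg2, 62 in Plk2, 166 in Btg2 and 48 in Sst. Pcsk1, a prohormone convertase gene, was at 58.9, 87.6, 100.3, 76.7 and 80.1 CPM with TTX/NMDA against 159, 161, 185, 187 and 184 CPM with TBOA (log2FC -1.13, adjusted p = 5.91e-06). Scg2, a granin of dense-core vesicles, and Plk2, a polo-like kinase gene, were also lower, with log2FC of -0.61 and -0.38. Btg2, as given above, was not called, and Sst, which encodes somatostatin, was higher, at 533, 461, 566, 537 and 340.1 CPM against 383, 391, 350.1, 447 and 295 CPM with overlap (log2FC 0.38, adjusted p = 0.00153). Thus genes with the same CRE near their start were found in each of the 3 outcomes.

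Across all genes with a promoter, the full CRE was present in 2.97% of 2965 genes that were higher, 3.71% of 2721 that were lower and 3.08% of 6104 that were not called, and in 1.88% of the 27025 promoters in the table. The half-site, which every full CRE contains, was in 28.3%, 33.5% and 31% of these classes. It was present in 16 of 24 immediate-early factor promoters and 13 of 25 promoters of the secreted and synaptic list. The Egr site (GCGGGGGCG or GCGTGGGCG) was in 5.56% of the higher, 8.89% of the lower and 6.45% of the other genes, and the AP-1 site (TGAGTCA or TGACTCA) in 3.71%, 2.72% and 3.52%. The CArG box, to which SRF binds, was in 1.15%, 1.14% and 1.52%. These shares are descriptions of short windows and were not tested.

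Genes of the glutamate system itself differed between the arms. Of the NMDAR subunits, 3 of 6 tested were lower and none was higher (median log2FC -0.30). Grin2b, the subunit that prevails in young neurons, was at 393, 389.9, 434, 362 and 481 CPM with TTX/NMDA and 819.8, 709, 536, 601 and 623 CPM with TBOA (log2FC -0.66, SE 0.10, adjusted p = 3.82e-04). Grin2a, which rises with maturation, was at 70.9, 73.7, 82.1, 60.7 and 74.3 CPM against 132, 106, 86.03, 103 and 97.1 CPM (log2FC -0.53, adjusted p = 0.00139). The obligatory subunit Grin1, the third member called, had a log2FC of -0.52. None of the 3 overlapped between the arms, whereas Grin3a was at 53.9 to 68.9 CPM against 55.5 to 76.4 CPM (log2FC -0.083, interval -0.22 to 0.054, adjusted p = 0.293). TBOA against 2 h Bic gave log2FC of 0.024 for Grin2b (adjusted p = 0.899) and -0.075 for Grin2a (0.644).

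Of 23 AMPA and kainate receptor subunits and auxiliary proteins, 13 were lower and 5 higher (median -0.17), and 8 and 3 without preparation 7. Shisa6, which holds AMPA receptors at the synapse, had the lowest log2FC of the list, at 102, 113, 108, 103 and 133 CPM against 220.1, 197, 188, 203 and 230.1 CPM (log2FC -0.89, adjusted p = 3.31e-06). Cacng2, which encodes the AMPA receptor auxiliary subunit stargazin, was higher without overlap, at 173, 173, 179, 169 and 159 CPM against 155, 136, 135, 145 and 119 CPM (log2FC 0.31, adjusted p = 7.44e-04). Among 7 metabotropic glutamate receptors 3 were lower and none higher, among them Grm5 (log2FC -0.61), a receptor coupled to calcium release, and the median of the list was -0.14 with TMM and 0.0008 with library totals.

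Among the genes that clear glutamate, Slc1a3, the transporter GLAST of astrocytes and a target of TBOA, was at 428, 394, 287, 514 and 327 CPM with TTX/NMDA and at 228, 258, 312, 267 and 217 CPM with TBOA (log2FC 0.60, adjusted p = 0.00283), higher in 4 of 5 preparations and lower in preparation 6. Slc1a2, the transporter GLT-1, was lower, at 435, 439, 412, 509.6 and 456 CPM against 569, 509, 526, 541 and 566 CPM (log2FC -0.27, adjusted p = 0.00213), and the neuronal transporter gene Slc1a1 had a log2FC of -0.34. Scaling by library totals ended the call for Slc1a2 (log2FC -0.13, adjusted p = 0.0512). The vesicular transporter gene Slc17a7, which loads glutamate into vesicles, was at 557, 459, 578, 457 and 661 CPM against 1004, 764, 882, 874 and 1034 CPM (log2FC -0.75, adjusted p = 7.42e-06). In the list of 18 glutamate transporters and enzymes, 7 were lower and 4 higher (2 higher without preparation 1), with a median of -0.11 that turned to 0.023 with library totals.

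Most genes of synaptic structure were lower with TTX/NMDA. Of 18 postsynaptic scaffolds 17 were lower and none higher (median -0.42). Camk2a, the calcium-dependent kinase of the postsynaptic density, was at 535, 439, 513, 434 and 660.5 CPM with TTX/NMDA and 1146, 919, 961, 949 and 1098 CPM with TBOA (log2FC -0.98, SE 0.061, adjusted p = 3.27e-06). Dlg2, a scaffold that binds NMDARs, was at 330.1, 371, 421, 332 and 414 CPM against 615, 629, 547, 606 and 600.3 CPM (log2FC -0.69, adjusted p = 5.88e-05). Its relative Dlg1 was the member not called, at 74.4 to 83.5 CPM against 73.3 to 81.6 CPM (log2FC 0.029). Of 24 genes of synaptic vesicle release, 17 were lower and none higher (median -0.29), led by Bsn, the active zone scaffold bassoon (log2FC -0.79), and Sv2b (-0.78), while the SNARE gene Vamp2 was not called (log2FC -0.079, interval -0.18 to 0.021). GABA type A receptor subunits were lower in 7 of 13 and higher in 1 (median -0.16), with Gabrb1 at log2FC -0.69. In the same samples, markers of neurons summed to 7169 to 7799 CPM with TTX/NMDA and 8589 to 9397 CPM with TBOA (median log2FC -0.18), and those of glutamatergic neurons to 755 to 978 CPM and 1217 to 1420 CPM (-0.40), while most glial markers, given with the other cell types, were higher. With library totals the medians of the 2 neuronal marker lists were -0.043 and -0.26. The part of the cell type markers in the results for activity-induced genes, receptors, synapses and ion channels was not tested.

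Voltage-gated calcium channels were lower in 12 of 15 and higher in none (median -0.44). Cacna1e, the R-type channel, was at 109.8, 131, 125, 98.7 and 154 CPM against 282, 241, 177, 219 and 230.0 CPM (log2FC -0.89, adjusted p = 1.31e-04), and the L-type channel gene Cacna1c had a log2FC of -0.81. Of 17 calcium pump, exchanger and uniporter genes, 11 were lower and 3 higher, or 1 higher without preparation 1 (median -0.26). Slc8a1, the plasma membrane sodium-calcium exchanger, was at 31.4, 42.6, 49.3, 41.2 and 45.4 CPM against 104, 95.3, 79.2, 106 and 105 CPM (log2FC -1.24, SE 0.11, adjusted p = 2.03e-05). Atp2b3, a plasma membrane calcium pump, was at 59.98, 55.97, 64.98, 54.6 and 65.7 CPM against 142, 117, 113, 126 and 135 CPM (log2FC -1.07, adjusted p = 2.65e-06). Both genes export calcium, and neither overlapped between the arms. The mitochondrial exchanger gene Slc8b1 was higher in 4 of 5 preparations (log2FC 0.67) at a low level, 1.43 to 3.33 CPM against 0.981 to 1.85 CPM, and lost the call without preparation 1 (adjusted p = 0.0535). Potassium channels were lower in 29 of 45 and higher in 2 (median -0.33), with Kcnq5, an M-type channel gene, at log2FC -0.86 and the astrocytic channel gene Kcnj10 at 0.56. The 2 higher became 1 without preparation 1, 3, 6 or 7, and 7 with library totals. Voltage-gated sodium channels, the targets of TTX, were lower in 5 of 10 (3 without preparation 1 or 7) and higher in none, with Scn2a at log2FC -0.50 and Scn8a at -0.39.

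ERK feedback inhibitors were lower in 12 of 20 and higher in 2 (median -0.20), with Dusp4 at log2FC -0.78 and Spry2 at -0.45. With library totals 5 were lower and 5 higher (median -0.059). The 2 higher became 0 with RLE scaling, with DESeq2, without the block and without preparation 3, 7 or 8, and 1 without preparation 6. Of 20 SRF and actin targets, 4 were higher (20% against 25.1% of all genes) and 4 lower (20% against 22.4%). The 4 higher became 2 without preparation 1 or 7, and the 4 lower became 2 without preparation 3, 7 or 8. Library totals gave 10 higher and 2 lower in this list. Srf itself was at 29.4, 32.8, 32.8, 31.96 and 32.6 CPM with TTX/NMDA against 53.2, 50.1, 56.6, 60.7 and 53.2 CPM with TBOA (log2FC -0.77, adjusted p = 5.65e-06). Actb was at 1379.8 to 1632 CPM against 1295 to 1488 CPM and not called (log2FC 0.087). Of 29 genes of the integrated stress response, 10 were lower, led by the phosphatase subunit gene Ppp1r15a (log2FC -0.59), and 8 higher, led by Nupr1 (0.67) and Trib3 (0.59), while Atf4 was not called (-0.026, interval -0.14 to 0.084). The 10 became 5 without preparation 3, 7 or 8, and the 8 became 5 without preparation 1. Its median of -0.041 turned to 0.095 with library totals, and the same scaling turned the medians of the next 3 lists from -0.0001 to 0.14, from -0.037 to 0.099 and from -0.081 to 0.055. Endoplasmic reticulum chaperones were higher in 5 and lower in 4 of 20, and cytosolic heat shock genes higher in 4 and lower in 8 of 20, with Hspa1b at 4.85, 4.34, 5.03, 6.16 and 4.79 CPM against 12.4, 7.48, 9.96, 9.56 and 7.30 CPM (log2FC -0.88) and Cryab at log2FC 0.51. The 5 higher chaperones became 2 without preparation 1, 3 or 7, and library totals gave 10 higher and 2 lower. The 4 higher heat shock genes became 2 without preparation 1, and the 8 lower became 5 with library totals. The Bcl2 family had 3 of 17 members higher and 4 lower.

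Among 14 Trpm and excitotoxic death genes, 6 were lower and 3 higher, with a median of -0.12 that turned to 0.018 with library totals. Casp8, the initiator caspase of death receptors, was at 1.53, 1.31, 0.992, 1.28 and 1.07 CPM with TTX/NMDA against 0.612, 0.858, 0.705, 0.989 and 0.206 CPM with TBOA, without overlap (log2FC 1.03, SE 0.24, adjusted p = 0.00551). Nos1, the neuronal nitric oxide synthase that is tethered to NMDARs, was at 60.5, 70.6, 81.3, 67.3 and 45.2 CPM against 123, 117, 81.6, 113 and 82.7 CPM (log2FC -0.69, adjusted p = 7.7e-04). The cation channel gene Trpm2 had a log2FC of -0.42, and the calpain gene Capn2 was not called (-0.0054, interval -0.11 to 0.10). Of 18 p53 targets, 9 were higher and 3 lower (median 0.19). The 3 lower became 0 without preparation 3 and with library totals, and 1 without preparation 7 or 8 and without the block. Eda2r, a death receptor of the TNF family, was at 24.1, 23.02, 14.7, 28.3 and 17.2 CPM against 12.6, 14.3, 12.8, 12.6 and 10.7 CPM (log2FC 0.78, adjusted p = 2.08e-04), and Trp53inp1 at 44.6, 47.2, 33.1, 59.9 and 45.2 CPM against 26.7, 29.7, 29, 30.4 and 26.1 CPM (log2FC 0.70). Neither gene overlapped between the arms, and for both the smallest difference was in preparation 6. Nrf2 and redox genes were higher in 14 of 21 (9 without preparation 1, 8 without 3 or 7) and lower in none (median 0.21), among them Nfe2l2, which encodes Nrf2 itself (log2FC 0.61), and Osgin1 (0.63), while Sod2 was not called (-0.051).

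Cholesterol synthesis and SREBP targets were lower in 19 of 23 and higher in 1 (median -0.28), with Stard4, a cholesterol carrier gene, at 151, 214, 220.5, 187 and 139 CPM against 276, 334, 309, 315 and 199.6 CPM (log2FC -0.65). The exception was Srebf1 (log2FC 0.50), which encodes a factor of lipid synthesis. Glycolysis and glucose transport genes were lower in 11 of 22 (6 without preparation 3, 7 without 7) and higher in 1, with the neuronal glucose transporter gene Slc2a3 at 277, 298, 305, 279.5 and 265 CPM against 464, 486, 466, 493 and 451 CPM (log2FC -0.73, adjusted p = 3.31e-06) and the monocarboxylate transporter gene Slc16a1 at log2FC -0.79. Both of these transporters were among the genes that Bic raised, with log2FC of 1.41 and 2.26 after 2 h. Nuclear-encoded respiratory chain genes were higher in 19 of 34 and lower in none (median 0.19), with Ndufb9 at log2FC 0.44 and Ndufa5 at 0.44. Cytosolic ribosomal protein genes were higher in 26 of 35 and lower in none (median 0.25), with Rpl23 at 182, 152, 160.4, 176 and 165 CPM against 130.4, 127, 130.4, 119 and 127 CPM (log2FC 0.40) and Rps24 at log2FC 0.39. Of 14 PGC-1 and mitochondrial biogenesis genes, 2 were higher, 1 was lower and 11 were not called. The 1 lower became 0 without preparation 1, 3, 7 or 8, without the block and with DESeq2. The 2 higher became 1 without preparation 3 and 7 with library totals. Chromatin and DNA methylation regulators were lower in 11 of 21 (6 without preparation 7, 7 without 8) and higher in 2, with the demethylase gene Tet3 at log2FC -0.35. The 2 higher became 1 without preparation 3 and 0 without preparation 7, and without the block 7 were lower and 1 was higher. With library totals 3 were lower and 6 higher, and the median of this list moved from -0.15 to -0.013.

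**Figure D2:**
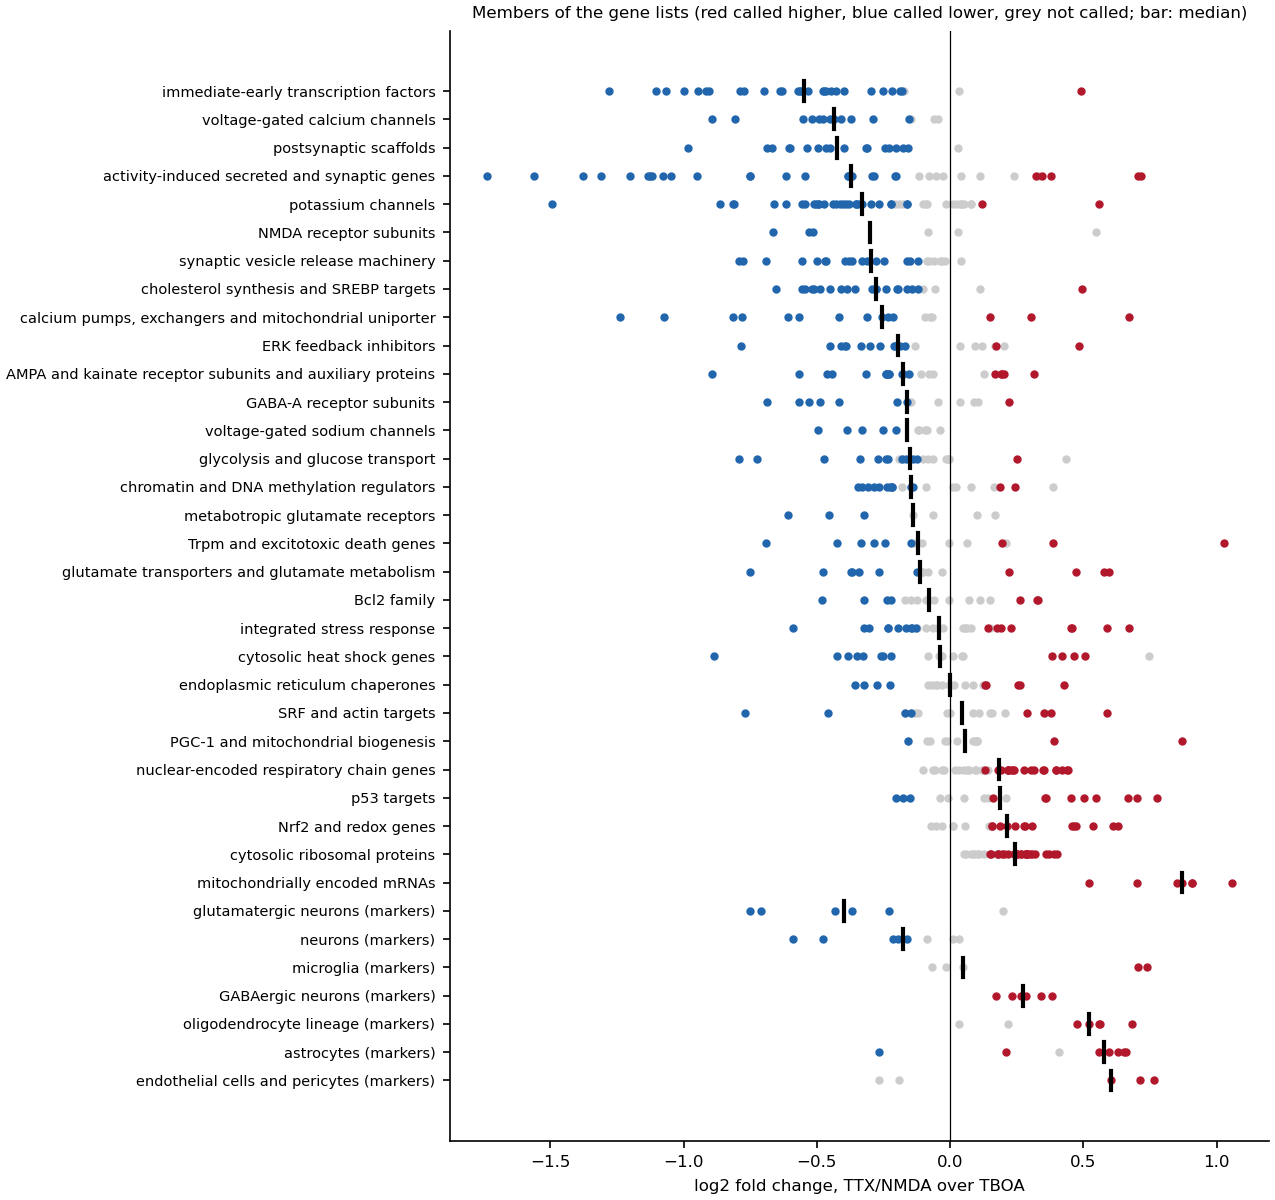
Log2FC of TTX/NMDA over TBOA for every tested member of 36 gene lists, 29 pathways above and 7 lists of cell type markers below, each sorted by its median. Red dots were called higher, blue dots lower and grey dots not called, and black bars are list medians. Immediate-early factors, calcium channels and postsynaptic scaffolds lie almost wholly to the left of 0, ribosomal proteins and mitochondrially encoded mRNAs to the right.

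Transcripts of the mitochondrial genome had the highest median of the 36 lists. Of 13 mitochondrially encoded mRNAs 7 were tested, since the other 6 are listed at 0 counts in all 10 samples, and all 7 were higher (median log2FC 0.87). The complex I subunit mt-Nd4 was at 1047, 1041, 1294, 1124 and 807 CPM with TTX/NMDA and 507, 704, 446, 569 and 366 CPM with TBOA (log2FC 1.06, SE 0.10, adjusted p = 3.67e-05). The mitochondrial 12S ribosomal RNA mt-Rnr1 was at 1074, 1035, 1246, 942 and 991 CPM against 582, 617, 529.6, 485 and 448 CPM (log2FC 1.00, adjusted p = 4.99e-06), and mt-Cytb at log2FC 0.91. In these genes the lowest TTX/NMDA sample lay above the highest TBOA sample. Against 2 h Bic, mt-Nd4 had a log2FC of 1.31 with TTX/NMDA (adjusted p = 1.15e-08) and of 0.25 with TBOA (0.108), and all 14 genes of the mitochondrial genome that were tested were higher with TTX/NMDA than with TBOA.

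A230103L15Rik (chr7:59327318-59331189, GRCm38), a non-coding gene without an assigned function, had the largest log2FC among genes of at least 5 CPM. It was at 15.8, 18.8, 12.3, 14.2 and 18.1 CPM with TTX/NMDA and 2.42, 3.74, 1.41, 1.69 and 2.30 CPM with TBOA (log2FC 2.75, SE 0.11, adjusted p = 6.63e-07). The next were 9330162G02Rik, at 50.97, 60.2, 45.7, 45.8 and 54.2 CPM against 14.9, 18.6, 12.6, 12.9 and 12.6 CPM (log2FC 1.85), Gm37928 (1.08) and AI480526 (1.00). With TTX and no NMDA these leading models were at 2.39 ± 0.573 and 16.4 ± 2.95 CPM (SD, n = 5), and TTX did not pass the test against TBOA (adjusted p = 0.992 and 0.294). The models that were lowered most were C230034O21Rik (log2FC -1.29), M5C1000I18Rik (-1.01), 6530402F18Rik (-0.92) and Gm9954 (-0.89).

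Many non-coding models lie in introns of protein-coding genes on the same strand, where reads of the host's intron and of a separate transcript cannot be told apart. This feature was noticed in the values of the largest increases and is described without a test. Of 207 non-coding models with a tested host, 195 overlapped no exon of it. Of these 195, 97 were called higher and 15 lower, with a median log2FC of 0.51, while the median of their hosts was -0.20. Models that were scarce with TBOA passed the filter on low counts through the TTX/NMDA samples, so these counts and medians support nothing about models as a class. Over all tested models inside a host, exonic ones included, 107 were higher and 18 lower, and among genes with a mean of at least 1 CPM 28 were higher. The 18 became 7 without preparation 1, 11 without preparation 7, 8 without the block, 8 with library totals and 7 with DESeq2. In 68 models called higher the host gene was called lower. By position, the median was 1.00 for 43 models in the first 20% of the host's length, 0.94 for 38 in the next 20%, 0.65 for 36, 0.32 for 32 and 0.22 for 46 in the last 20%. The library preparation selected poly-A RNA, and reads that overlap several genes were not counted.

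Dlg2, the scaffold gene described above, is the locus with the most such models and was chosen after their values were seen. It spans chr7:90476672-92449247 (GRCm38) and holds 11 tested models, of which 10 lie in introns and were called higher. Gm44677 (chr7:91627272-91631010), which lies 58.4% of the way along the gene, was at 3.32, 3.28, 3.69, 3.33 and 3.16 CPM with TTX/NMDA and 0.395, 0.460, 0.441, 0.424 and 0.294 CPM with TBOA (log2FC 3.06, adjusted p = 1.02e-06). Its low counts with TBOA mean that it entered the test through the TTX/NMDA samples. The 10 ranged from log2FC 0.91 to 3.70, with the value of 0.91 for Gm45201 at the end of the gene. Other hosts had another order: in Ctnna2 the intronic model nearest the start had a log2FC of 1.96 and the others 2.55 to 3.29, and in Pcdh7 the model nearest the start had -0.76 and the other 2.12. The model that overlaps an exon, Gm45159, had a log2FC of -0.77, near the -0.69 of Dlg2 itself.

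**Figure D3:**
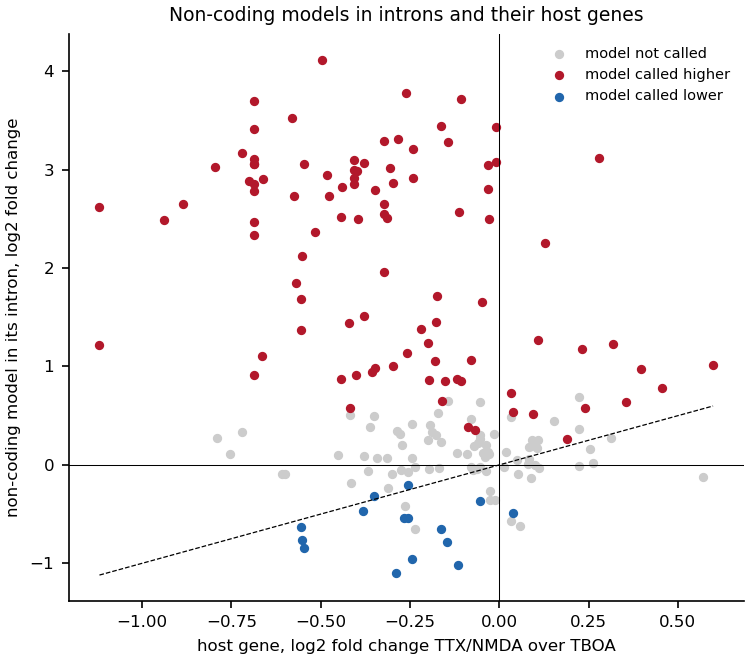
Each of the 195 dots is a non-coding model in an intron of a protein-coding host on the same strand, with the host's log2FC of TTX/NMDA over TBOA on the horizontal and the model's on the vertical axis. Red models were called higher, blue lower, grey not called, and the dashed line marks equal change. Most models lie above the line, and many of those called higher have hosts with a log2FC under 0.

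Calls also varied with the length of the gene body, a pattern that was likewise noticed in the data and not tested. Of 1435 protein-coding genes of the nuclear genome that span up to 5 kb, 610 (42.5%) were higher and 120 (8.36%) lower with TTX/NMDA (median log2FC 0.18). The shares crossed between 20 and 50 kb, where 892 of 3830 genes were higher and 922 lower (median 0.021). Of 720 genes of 200 to 500 kb, 89 (12.4%) were higher and 336 (46.7%) lower, and of 215 genes over 500 kb, 20 (9.30%) were higher and 124 (57.7%) lower (median -0.28). With library totals the shortest class had 932 higher and 60 lower genes and the longest class 43 higher. Without the block the longest class had 12 higher, and without preparation 7 the shortest class had 78 lower. Against 2 h Bic, the medians of the shortest and the longest class were 0.17 and -0.29 with TTX/NMDA and -0.022 and -0.03 with TBOA. In preparations 1, 3, 6, 7 and 8 the median of the shortest class was 0.27, 0.14, 0.063, 0.20 and 0.088, and that of the longest -0.46, -0.27, -0.12, -0.30 and -0.18. Several of the lists above differ in span, with a median of 3.78 kb for the ribosomal proteins, 102 kb for the postsynaptic scaffolds and 249 kb for the calcium channels, and the part of span in their results was not tested.

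**Figure D4:**
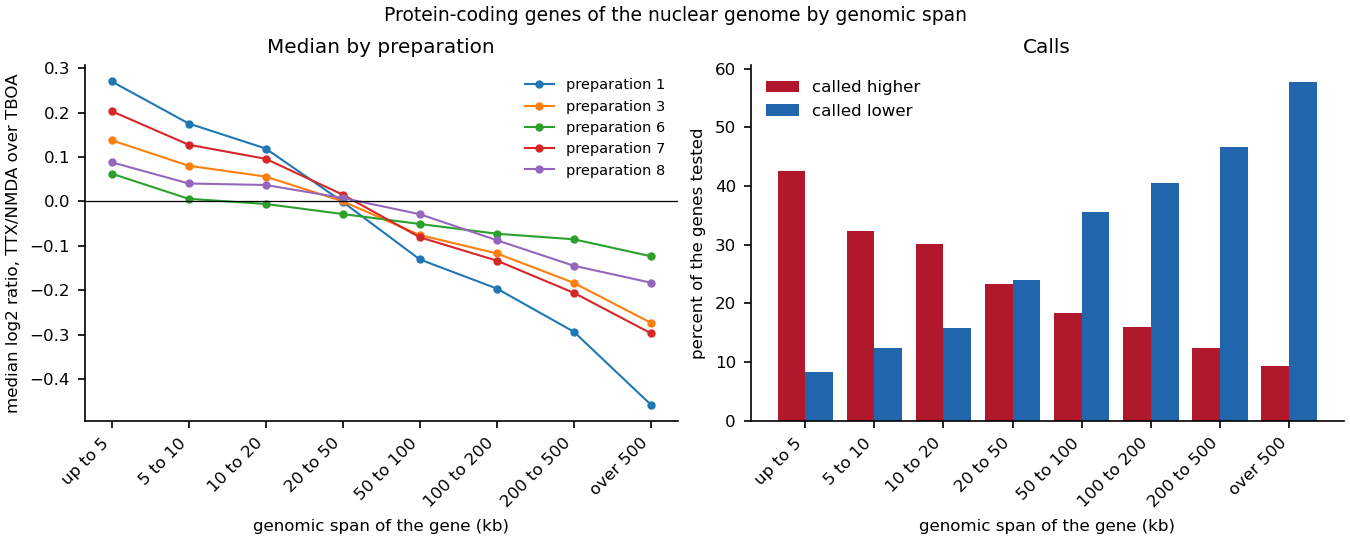
Protein-coding genes of the nuclear genome in 8 classes of genomic span. The left panel gives the median log2 ratio of TTX/NMDA over TBOA in each of the 5 preparations, and the right panel the percent of tested genes called higher (red) and lower (blue). From the shortest to the longest class the share called higher falls from 42.5% to 9.30% and the share called lower rises from 8.36% to 57.7%.

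All 8 neuronal markers were abundant in every sample of the arms, from Rbfox3 at 191 CPM or more to Stmn2 at 1541 CPM or more. Their sum was 7169 to 7799 CPM with TTX/NMDA and 8589 to 9397 CPM with TBOA, with 5 of 8 lower, among them the neurofilament gene Nefl (log2FC -0.59) and Map2 (-0.48). With library totals alone 2 of the 8 were higher and 2 lower, and the median log2FC moved from -0.18 to -0.043. Markers of glutamatergic neurons summed to 755 to 978 CPM against 1217 to 1420 CPM, and 5 of 6 were lower (Slc17a7 as above, and the dentate granule cell factor Prox1 at log2FC -0.71). Slc17a7, at 457 to 1034 CPM over the samples of both arms, made up most of this sum and is also in the glutamate transporter list. Markers of GABAergic neurons summed to 1714 to 2559 CPM against 1497 to 2123 CPM, and 6 of 6 were higher, with log2FC from 0.17 to 0.38 (Dlx1 at 0.38 and Dlx2 at 0.34). Without the block 1 of the 6 was called higher, with edgeR and with DESeq2.

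Markers of glia were mostly higher with TTX/NMDA. Of 8 astrocyte markers 6 were higher, among them the water channel gene Aqp4 (log2FC 0.66) and the connexin gene Gja1 (0.65), and Slc1a2 was lower. Their sum was 1691, 1425, 1190, 2045 and 1316 CPM with TTX/NMDA and 1255, 1194, 1497, 1364 and 1196 CPM with TBOA, so that preparation 6 ran against the other 4. Gfap, the intermediate filament gene of astrocytes, was at 515, 314, 276, 656 and 312 CPM against 265, 228, 434, 344 and 259 CPM and not called (log2FC 0.41, adjusted p = 0.0902), but it was called without preparation 6 (log2FC 0.66, adjusted p = 0.000522). Of 7 markers of the oligodendrocyte lineage 5 were higher, and their sum was 158 to 320 CPM against 134 to 204 CPM, with preparation 6 again reversed. The defining marker of mature oligodendrocytes, Mog, had at most 24 counts in any sample.

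Markers of microglia were near 0, with a sum of 6.14 to 8.95 CPM with TTX/NMDA and 5.12 to 7.32 CPM with TBOA, at most 42 counts of Cx3cr1 and at most 12 of P2ry12 per sample, and of 5 tested Cx3cr1 (log2FC 0.70) and C1qa, a complement gene (0.74), were higher. The TBOA sample of preparation 3 had a single count of Cx3cr1, and this call was lost without preparation 3 (adjusted p = 0.0753) and under 7 other alternatives (adjusted p = 0.0503 to 0.435). Endothelial and pericyte markers summed to 26.2 to 31.1 CPM against 18.2 to 23.5 CPM, with 3 of 5 higher, and Cldn5 had at most 2 counts per sample. Apart from preparation 6, the glial marker sums were higher with TTX/NMDA, as were the genes of phagocytes and the medians of the p53 and Nrf2 lists. In preparation 6 the sums were 1190 against 1497 CPM for astrocytes and 196 against 204 CPM for the oligodendrocyte lineage. Lyz2 and Mmp12 had their highest TTX/NMDA levels in that preparation and were above TBOA there. The list medians there were 0.037 for p53 targets and -0.054 for Nrf2 genes. The part of the glial markers in these results was not tested.

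**Figure D5:**
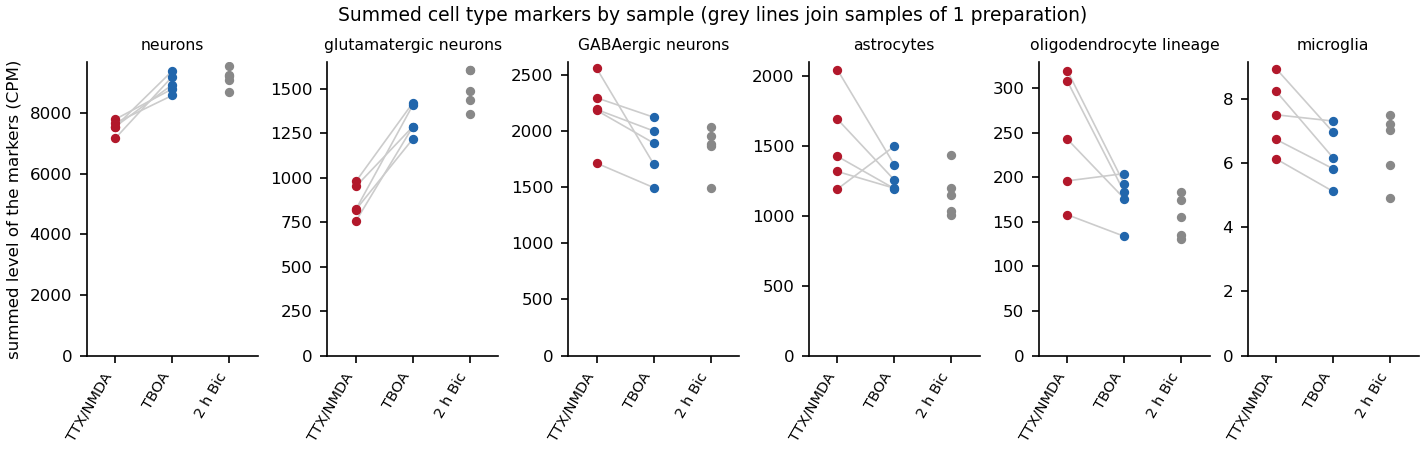
Summed levels in CPM, with TMM scaling, of the markers of 6 cell types in the 5 samples of TTX/NMDA (red), TBOA (blue) and 2 h Bic (grey), with axes starting at 0 and lines joining samples of the same preparation. Markers of neurons and of glutamatergic neurons are lower with TTX/NMDA in all 5 preparations, and those of astrocytes are higher in 4 of 5, with preparation 6 as the exception.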

How the data were processed

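RNA-seq counts of 45 samples of mouse hippocampal cultures were deposited as a single table of reads per gene, of which the 10 samples of the arms and 15 reference samples were used here. The authors made these counts from poly-A-selected, directional single-end libraries (75 cycles) with bcl2fastq 2.20.0.422, STAR 2.5.4b on GRCm38 and featureCounts 1.6.5 with Ensembl 94 genes, on the sense strand and without reads that map or overlap more than once. They are not normalised, and the authors tested them with DESeq2.

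Counts were tested here with edgeR 4.0.16 (R 4.3.3, limma 3.58.1), with TMM factors, filterByExpr (minimum count 10, minimum total 15), the quasi-likelihood test and Benjamini-Hochberg adjustment at 0.05. All tests are two-sided. The samples of each comparison alone entered its fit. The labels give the culture preparation that each number stands for, so the preparation was a block. Deviations of same-numbered samples from their arm's mean correlated at 0.26, 0.59, -0.15, 0.51 and 0.67 in preparations 1, 3, 6, 7 and 8 (mean 0.38, different numbers -0.09). Levels are CPM with TMM factors over 45 samples, and values without a stated error are single samples. No libraries were identical (lowest correlation within an arm 0.98). A higher total count gives less counting error, which limits preparation 6 most.

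Named genes were the 12 largest differences in each direction among named symbols and the 4 largest among gene models (called, mean of at least 5 CPM, 5 of 5 preparations), 13 activity genes, up to 2 called members per direction of each list with its most abundant uncalled member, 4 uncalled Bic-induced genes, and genes called in opposite directions against 2 h Bic. Grin1, Slc1a1, Rbfox3, Stmn2, the genes with a CRE, the models in Dlg2, the gene span and the TTX classes were chosen after values were seen. The comparison, gene lists and rules were chosen with earlier results of these data known. Alternatives were scaling by RLE or library totals, other filters, DESeq2 1.42.0, no block, all 45 samples and leaving out each preparation, and, added after the data were seen, nuclear protein-coding genes alone. Results for some genes that these rules select are not reported here. Promoters are from RefSeq (GRCm38.p6), and gene positions from an annotation of GRCm38 that held 54495 of the 54532 genes of the table. Figures were drawn with matplotlib 3.10.9.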

Additional observations from a re-analysis of the deposited data

Results flagged for a closer look

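In 14 of 280 sets of 5 samples, 1 sample lay so far from the others of its arm that the gap passed Dixon's 95% critical value for 5 samples, a value that chance passes in about 1 of 20 sets. No explanation for these samples was tested.

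With TTX/NMDA, preparation 1 was low for Ptchd1 at 3.37 CPM (the others 4.55 to 5.10), for M5C1000I18Rik at 3.18 CPM (4.32 to 4.89) and for Srf at 29.4 CPM (31.96 to 32.8), and high for Creld2 at 11.2 CPM (9.26 to 9.71). Preparation 3 was low for Sdf2l1 at 4.90 CPM (7.02 to 7.46). Preparation 7 was high for Actb at 1632 CPM (1380 to 1449). Preparation 8 was low for Nupr1 at 5.53 CPM (8.86 to 10.4) and for Dlx1 at 45.5 CPM (56.6 to 61.5).

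With TBOA, preparation 8 was low for Ptgs2 at 47.4 CPM (the others 108 to 129), for Sstr1 at 56.98 CPM (78.2 to 87.8) and for Plk2 at 472 CPM (546 to 570). All 3 genes are activity-induced. Preparation 6 was high for Scg2 at 658 CPM (593 to 606), preparation 8 was high for Atf6 at 63.4 CPM (50.2 to 53.6), and preparation 3 was low for Cx3cr1 at 0.031 CPM (0.47 to 0.56).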

How the results depend on the processing

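Without the replicate block, which pairs the samples by preparation, 2649 genes were higher and 2777 lower, 5420 of them shared with the 7691 calls of the paired test, and the counts against reference conditions fell to 104 (TBOA against 2 h Bic), 1250 (TTX against TBOA) and 2865 (genes changed by 2 h Bic). Scaling by library totals alone gave 7242 higher and 2080 lower genes, 235 higher and 182 lower list members and 1546 higher among the Bic-reduced genes. DESeq2 without the block on all genes with a read gave 2529 higher genes, 96 higher list members and 569 higher Bic-reduced genes. All genes with a read, with the block, gave 1060 for TBOA against 2 h Bic, a fit whose prior degrees of freedom were infinite. The CRE half-site share among higher genes was 30.0% with library totals. Leaving out a preparation gave 2869 to 4345 higher and 2785 to 3858 lower genes, 120 to 924 genes for TBOA against 2 h Bic, 998 to 2238 for TTX against TBOA, and a half-site share of 28.1% to 30.2%.

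Of 139 named genes 126 were called, and 113 of these kept the call and direction under every alternative in which they were tested. No named gene changed sign with a call, 5 lost the call without the block (Klf2, Cx3cr1, Trib3, Dlx2 and Sdf2l1), and 6 when some preparation was left out (Klf2, Cx3cr1, Slc8b1, Sdf2l1, Fas and Glul). Depth limits preparation 6, and genes near or under 1 CPM in some samples, such as Casp8, Serpinb2 and Cx3cr1, rest on few counts.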

Other observations

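Of 17 Bcl2 family members, 17.6% were higher and 23.5% lower, beside 25.1% and 22.4% of all genes. Among them Hrk, a BH3-only gene of neurons, was at 114, 114, 104, 74.2 and 135 CPM with TTX/NMDA against 171, 158, 140.1, 110.0 and 173 CPM with TBOA (log2FC -0.48), and Bax, which permeabilises the mitochondrial outer membrane, was at 56.01, 47.98, 52.02, 63.8 and 45.4 CPM against 38.3, 38.8, 45.1, 44.01 and 44.8 CPM (0.33). Bcl2, which opposes Bax, was also higher (log2FC 0.33), and Bcl2l13 was lower (-0.32). Fas, a death receptor and p53 target, was at 3.94, 2.76, 1.91, 3.29 and 1.65 CPM against 1.58, 2.08, 2.29, 1.84 and 1.38 CPM (log2FC 0.67, adjusted p = 0.0159 by edgeR's quasi-likelihood test). Of 20 endoplasmic reticulum genes 25% were higher and 20% lower, with Atf6 (log2FC -0.35) and Hyou1 (-0.32) among the lower and Creld2 (0.43) and Sdf2l1 (0.26) among the higher. The calls for Fas (adjusted p = 0.11) and Sdf2l1 (0.115) were lost without preparation 1, and that for Sdf2l1 also without preparations 3 (0.0674) and 7 (0.0773), without the block (0.182) and with DESeq2 (0.088).

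Glul, the glutamine synthetase gene, which astrocytes use to convert glutamate, was at 552, 426, 332, 703 and 395 CPM with TTX/NMDA against 318, 314, 399.6, 374 and 293 CPM with TBOA (log2FC 0.47, a call lost with DESeq2 and the block at an adjusted p of 0.103 and without preparation 1 at 0.0538), and the glutamine transporter gene Slc38a3 had a log2FC of 0.58. Idi1, an isomerase of sterol synthesis, was lower, at 16.5, 25.9, 25.2, 18.8 and 18.9 CPM against 30.8, 35.6, 31.2, 30.8 and 24.4 CPM (log2FC -0.56).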
